A study of Homo sapiens with 2 samples.

Results

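The genes described here are 10 human genes of the ERK pathway. Those that restrain it are the phosphatase genes DUSP5 and DUSP6, the Sprouty genes SPRY2 and SPRY4, and the Spred genes SPRED1 and SPRED2. Those that answer it are the transcription factor genes EGR1, FOS and ETV5. BRAF is a kinase gene of the cascade itself. All 10 were chosen by name, out of 20037 protein-coding genes. Their promoter contacts were read from promoter-capture Hi-C of K562, a long-established human line of chronic myelogenous leukaemia whose growth signal is the BCR-ABL1 fusion kinase. One library came from cells given 100 nM ponatinib, an inhibitor of ABL kinases, for 24 h, and 1 library from cells given the vehicle DMSO for 24 h. Each library was made from the same number of cells, with no replicate. In this assay crosslinked DNA is cut with the enzyme HindIII, neighbouring ends are joined, and probes pull out the joined pairs that hold a promoter.

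A bait is a fragment that an authors' list gives as the captured side of at least 1 pair. An interaction is a pair of fragments in an authors' list, of which at least 1 is a bait. A captured fragment with no listed interaction cannot be seen here, so a gene without a listed bait may still have been captured. A gene was given the interactions of every listed bait that holds either end of the gene. On that rule 7 of the 10 genes had a listed bait, each on 1 fragment, and 3 had none at a gene end: SPRED2, EGR1 and ETV5. ETV5 has 1 listed bait inside the gene, which holds neither end of it. The 7 genes had 53 interactions in the ponatinib list and 54 in the DMSO list, of 91305 and 84049 in all.

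ERK is the last kinase of the RAS, RAF, MEK cascade, and in K562 cells that cascade is driven by BCR-ABL1 through adaptor proteins. Active ERK switches on immediate early genes such as FOS and EGR1 within minutes, and later the genes of its own inhibitors, among them the DUSP phosphatases, which remove phosphate from ERK, and the Sprouty and Spred proteins, which act on RAS and RAF. Transcription of these genes is widely used as a readout of ERK activity, but the assay used here measures contacts of DNA and not transcription.

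Promoter sequences are shown for the pair of genes whose baits carry the most interactions, FOS and SPRY4, and for SPRED2, where the sequence shows where its bait ends. All are RefSeq windows of GRCh38.p14, from 250 bases before the first base of the transcript, which is counted as position 0, to 30 bases in all from that base on. FOS lies at chr14:75278578-75278857 on the plus strand, SPRY4 at chr5:142324218-142324497 on the minus strand and SPRED2 at chr2:65432570-65432849 on the minus strand. They are written 5′ to 3′ along the gene, and the capitals mark the letters TGACGT (core of the cyclic AMP response element) and GGGCGG (GC box) in FOS, GGGCGG in SPRY4, and the HindIII site AAGCTT in SPRED2.
FOS: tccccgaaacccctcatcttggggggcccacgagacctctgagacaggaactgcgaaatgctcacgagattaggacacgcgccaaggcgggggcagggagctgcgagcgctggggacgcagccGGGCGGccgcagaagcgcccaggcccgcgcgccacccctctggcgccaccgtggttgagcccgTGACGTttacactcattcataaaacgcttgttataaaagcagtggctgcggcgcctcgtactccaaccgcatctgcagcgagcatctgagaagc
SPRY4: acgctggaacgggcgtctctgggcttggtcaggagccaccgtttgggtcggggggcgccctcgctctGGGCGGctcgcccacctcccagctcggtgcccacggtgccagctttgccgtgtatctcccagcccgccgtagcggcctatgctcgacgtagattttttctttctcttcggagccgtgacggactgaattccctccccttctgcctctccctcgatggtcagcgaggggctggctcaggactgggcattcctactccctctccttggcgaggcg
SPRED2: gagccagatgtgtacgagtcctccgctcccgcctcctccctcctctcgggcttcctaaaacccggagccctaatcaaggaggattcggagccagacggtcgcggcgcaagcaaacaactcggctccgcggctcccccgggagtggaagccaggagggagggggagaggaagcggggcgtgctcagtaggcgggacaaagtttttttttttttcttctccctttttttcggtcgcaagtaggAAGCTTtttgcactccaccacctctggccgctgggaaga

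The FOS and SPRY4 windows lie inside their listed baits, chr14:75276647-75283350 and chr5:142322596-142329456. In the SPRED2 window the HindIII site spans positions -9 to -4, so the cut separates the first base of the gene from the fragment before it. The listed bait there, chr2:65432604-65434623, holds 246 of the 280 bases of the window but starts 5 bp beyond the end of the gene, which is why SPRED2 has no bait on the rule used. On either strand, AAGCTT is found in 5.51% of the 35116 promoter windows of the table, TGACGT in 7.77% and GGGCGG in 44.1%. In FOS the TGACGT match lies at -64 to -59 and the GGGCGG match at -127 to -122, and in SPRY4 the GGGCGG match lies at -183 to -178. The table held windows for 8 of the 10 genes.

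The ponatinib list was 1.09 times as long as the DMSO list, so 52.1% of all listed interactions were in ponatinib (51.8 to 52.3%, exact 95% binomial interval, as all intervals of shares here). The median distance between the fragments of a pair was 242 kb in the ponatinib list and 234 kb in the DMSO list. The score that the authors give each interaction had a minimum of 5 in both lists, and a median of 6.55 in ponatinib and 6.47 in DMSO. It is the authors' own value within its list and was not scaled between libraries. The fusion that defines the line was visible, since 1765 of 1781 interactions between chromosomes 9 and 22 in ponatinib, and 1636 of 1654 in DMSO, lay on chromosome 9 no more than 1 Mb from ABL1. Sequencing depth is unknown, because no read numbers are in the lists. The intervals hold counting error alone and treat neighbouring fragments as independent, which they are not. With 1 library per treatment no test of the drug was possible.

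The 7 genes with a bait had almost the same number of interactions in ponatinib as in DMSO, 53 and 54, which puts 49.5% in ponatinib (39.7 to 59.4%), and that interval holds the 52.1% of the whole lists. FOS and SPRY4 had the most. DUSP5 and SPRY2 had more in ponatinib, BRAF, SPRY4 and FOS fewer, SPRED1 the same number, and DUSP6 1 interaction in all. Calls were made for genes with 5 or more interactions in the sum of the lists, where the numbers differed by 2-fold or more after 1 was added to each. Of the 6 genes with at least 5 interactions, 0 were called with more and 0 with fewer. Over all 9787 genes with at least 5 interactions, 9.92% were called with more and 6.26% with fewer. The log2 ratio of the 6 genes had a median of -0.05, and ran from -0.74 at BRAF to 0.87 at DUSP5, against a median of 0.08 over all 9787 genes.

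**Figure D1:**
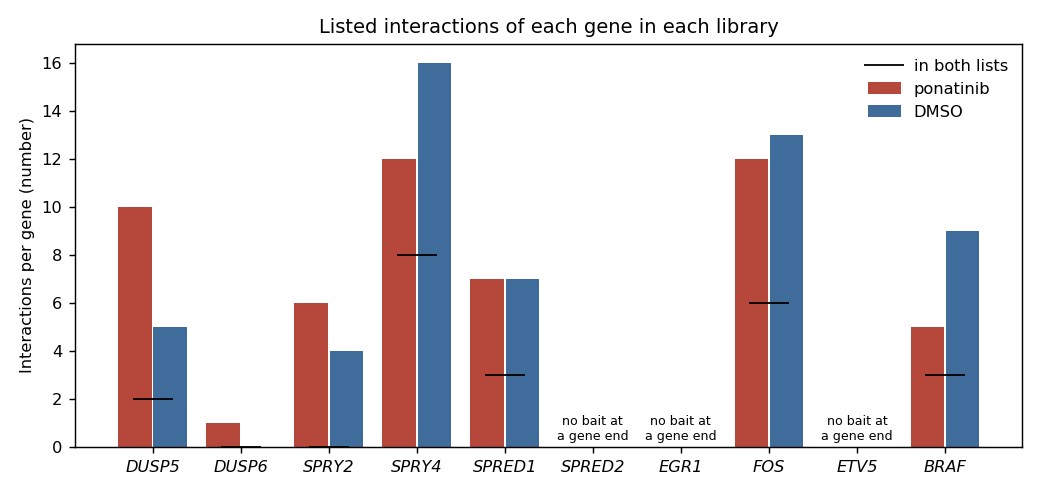
Number of listed interactions of each of the 10 genes (vertical axis) in the ponatinib library (left bar, red) and the DMSO library (right bar, blue), with a black line at the number in both lists; each bar is 1 library and has no error bar. DUSP5 has 10 and 5, BRAF 5 and 9, and SPRED2, EGR1 and ETV5 have no listed bait at a gene end.

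DUSP5, which encodes a nuclear phosphatase of ERK, had 10 interactions in ponatinib and 5 in DMSO, 2 of them shared, meaning that exactly the same pair was listed for each library. Its bait was chr10:110495376-110503186, over 1 end of the gene (chr10:110497907-110511533). The share in ponatinib was 66.7% (38.4 to 88.2%), an interval that also holds 52.1%. Every partner lay at lower coordinates, at a median of 159 kb in ponatinib and 195 kb in DMSO. The highest score in both lists belonged to the fragment at the start of SMNDC1, a gene for a spliceosome assembly protein, 195 kb away, with 14.26 in ponatinib and 8.11 in DMSO. That was at or above 92.5% of all scores in the ponatinib list and 72.9% of those in the DMSO list. The other shared partner was a fragment with no gene over it, 145 kb away, with scores of 6.9 in ponatinib and 6.25 in DMSO.

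Of the 8 interactions of DUSP5 found in the ponatinib list only, 4 lay in 1 run with the shared ones. That run of 7 partner fragments, starting at SMNDC1, chr10:110301333-110356065, carried 6 interactions in ponatinib and 3 in DMSO. One fragment of it, 177 kb away, scored 8.18 in ponatinib and was not in the DMSO list. The start of MXI1, a gene for an antagonist of MYC, 290 kb away, scored 7.91 in ponatinib and was likewise not in the DMSO list, while the next fragment, inside MXI1 and 282 kb away, scored 5.95 in DMSO only. When both ends could be matched within 5 kb, 6 of the 10 interactions in ponatinib and 4 of the 5 in DMSO had a counterpart. Most interactions of DUSP5 in either list therefore had one beside them in the other.

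DUSP6, which encodes the cytoplasmic phosphatase of ERK, was almost without listed interactions. Its bait, chr12:89347945-89357711, also holds an end of the readthrough gene POC1B-DUSP6. It had 1 interaction in ponatinib, with a fragment 70.2 kb away at a score of 6.98, and 0 in DMSO. At 1 interaction over both lists it ranked at or above 7.04% of the 13721 genes with a listed bait, where DUSP5 with 15 ranked at or above 71.1%. A single interaction gives no comparison between the libraries.

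SPRY2, which encodes an inhibitor of receptor tyrosine kinase signalling to RAS, had 6 interactions in ponatinib and 4 in DMSO, and 0 were shared. Its bait, chr13:80335610-80344707, holds the whole gene. Its partners were the most distant of the set, at a median of 576 kb in ponatinib and 582 kb in DMSO, with the farthest at 898 kb and 941 kb. The highest score in ponatinib, 8.22, was at the start of NDFIP2, a gene for an adaptor of ubiquitin ligases, 862 kb away, a fragment that SPRY2 did not have as a partner in DMSO. The highest in DMSO, 7.14, was inside RBM26, 941 kb away. No score of SPRY2 reached 10 in either list, and within 5 kb 1 of its 6 interactions in ponatinib and 1 of its 4 in DMSO had a counterpart. The NDFIP2 fragment had 6 interactions in ponatinib and 18 in DMSO with all of its partners together, so its pair with SPRY2 was listed where that fragment had fewer interactions.

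**Figure D2:**
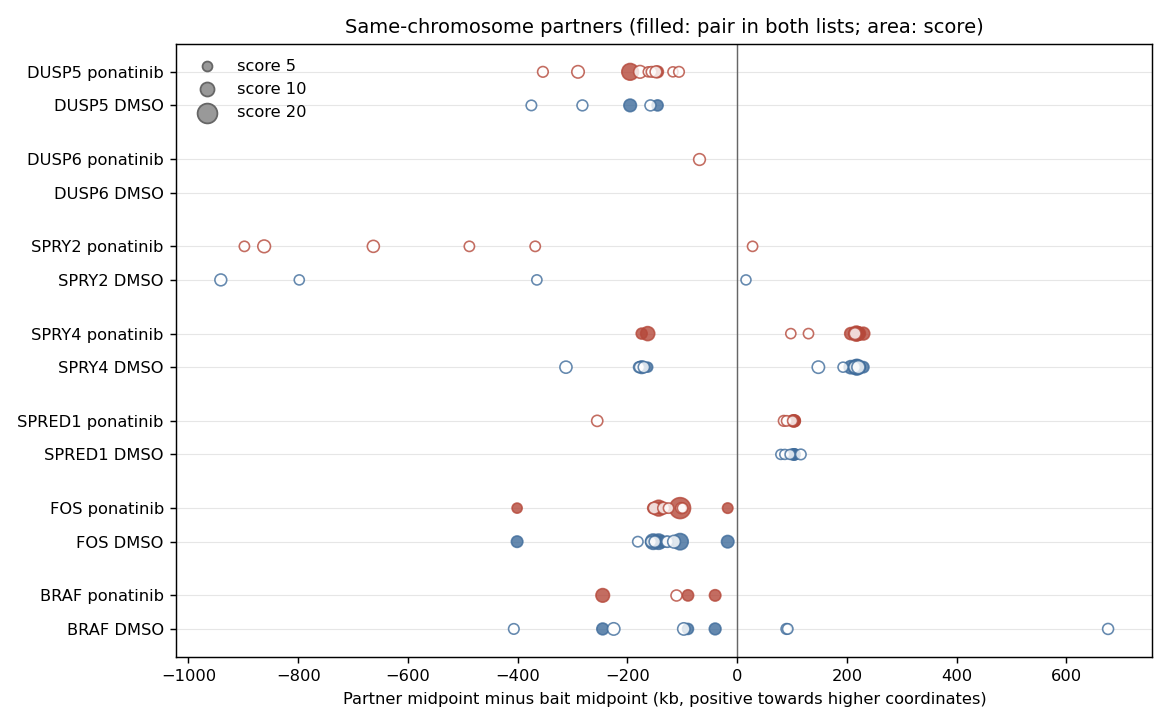
Position of each same-chromosome partner of the 7 genes, as the distance in kb from the midpoint of the bait (horizontal axis, positive towards higher coordinates); for each gene the ponatinib row (red) is above the DMSO row (blue), the area of a point is its score and a filled point is a pair in both lists. Partners of DUSP5 and FOS lie at lower coordinates only, those of SPRY2 reach 898 kb in ponatinib and 941 kb in DMSO, and SPRY2 has no filled point.

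SPRY4, the other Sprouty gene, had 12 interactions in ponatinib and 16 in DMSO, of which 8 were shared, a share in ponatinib of 42.9% (24.5 to 62.8%). Shared pairs were 66.7% of its interactions in ponatinib and 50.0% of those in DMSO. Its contacts fell into runs on either side of the bait. The larger run, chr5:142511751-142562835, lies 193 to 230 kb away on the upstream side of this minus-strand gene and has no annotated gene over it. It held 10 partner fragments, with 7 interactions in ponatinib and 9 in DMSO, 6 of them shared. Its highest score was 11.47 in ponatinib and 12.08 in DMSO.

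Within that run the highest scores lay on fragments close to each other. The fragment 217 kb away scored 11.47 in ponatinib and 11.82 in DMSO. Of the neighbouring short fragments 219 kb away, the one of 611 bp scored 10.03 in ponatinib and 6.21 in DMSO, and the one of 552 bp scored 6.94 in ponatinib and 12.08 in DMSO. So the scores of adjoining fragments moved in opposite directions between the lists. One fragment of the run, 207 kb away, is itself a bait with 9 interactions in each list, and its pair with SPRY4 scored 7.46 in ponatinib and 8.91 in DMSO.

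The second run of SPRY4, chr5:142146006-142165293, lies 163 to 179 kb away on the downstream side, at the 3′ end of NDFIP1. NDFIP1, an adaptor of ubiquitin ligases like NDFIP2, is named because its place was seen in the data. The run held 5 fragments, with 2 interactions in ponatinib and 5 in DMSO, both of the ponatinib ones shared. The fragment just beyond the gene scored 10.05 in ponatinib and 5.06 in DMSO, and the fragment 174 kb away scored 6.15 in ponatinib and 8.14 in DMSO. A pair with the start of GNPDA1, a gene of amino sugar metabolism, 312 kb away, scored 7.48 in DMSO and was not in the ponatinib list. Matching within 5 kb gave a counterpart to 9 of 12 interactions in ponatinib and 14 of 16 in DMSO, so most of the 8 pairs found in DMSO only, but 1 of the 4 found in ponatinib only, lay beside a pair of the other list.

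**Figure D3:**
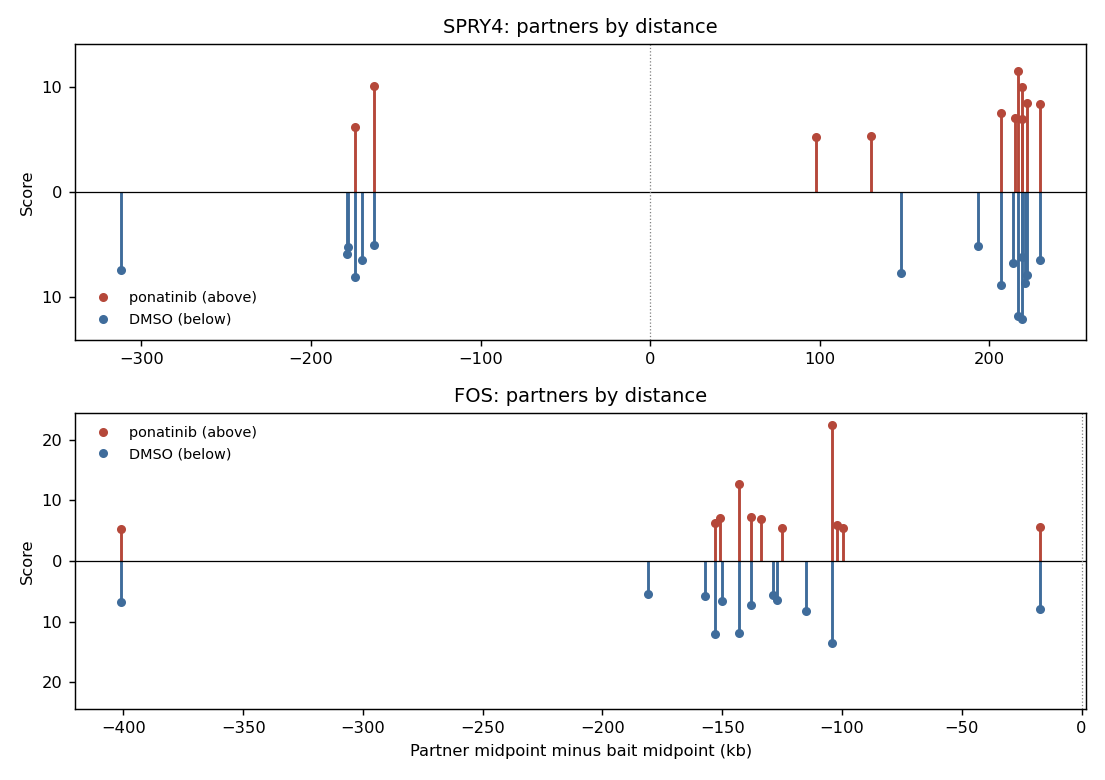
Scores of the same-chromosome partners of SPRY4 (upper panel) and FOS (lower panel) against distance from the bait midpoint in kb, with ponatinib bars drawn upwards and DMSO bars downwards from 0. SPRY4 has a cluster at 193 to 230 kb and one at -163 to -179 kb in both libraries, and the tallest bars of FOS are at -104 kb, with 22.4 in ponatinib and 13.58 in DMSO.

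SPRED1, which encodes a protein that brings the RAS inhibitor neurofibromin to the membrane, had 7 interactions in each list, 3 of them shared. Its bait, chr15:38248953-38253308, holds the start of the gene, and 6 of the 7 partners in each list lay over SPRED1 itself. With 1 fragment past the gene they formed a run of 10 fragments, chr15:38326192-38368510, 79.6 to 116 kb away, over and just past the 3′ end of the gene. The 3 shared partners lay side by side at 102 to 105 kb. Their scores were 7.4, 7.52 and 6.34 in ponatinib, and 6.35, 6.5 and 5.94 in DMSO. All 3 were higher in the ponatinib list, and no score of SPRED1 reached 10 in either. The 1 partner elsewhere was 255 kb away on the other side, inside TMCO5A, and scored 6.35 in ponatinib only.

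FOS, the immediate early gene of the set with a bait and a subunit of the AP-1 transcription factor, had 12 interactions in ponatinib and 13 in DMSO, 6 of them shared. The share in ponatinib was 48.0% (27.8 to 68.7%). All of its partners on chromosome 14, 11 in ponatinib and 12 in DMSO, lay at lower coordinates, upstream of this plus-strand gene. A run of 14 fragments, chr14:75121221-75181606, over the neighbouring genes NEK9 and TMED10, took 9 interactions in each list. The start of TMED10, a gene for a cargo receptor of the early secretory pathway, 104 kb away, scored 22.4 in ponatinib and 13.58 in DMSO, the highest scores of all 7 genes in either list. These were at or above 96.8% of the scores in the ponatinib list and 92.7% of those in the DMSO list.

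The other high scores of FOS did not move the same way. A fragment in the body of TMED10, 143 kb away, scored 12.67 in ponatinib and 11.95 in DMSO. The start of NEK9, a gene for a mitotic kinase, 153 kb away, scored 6.21 in ponatinib and 12.11 in DMSO. So the start of TMED10 scored higher in the ponatinib list, the start of NEK9 lower, and the fragment between them about the same. A fragment that holds the starts of both DLST, for a subunit of the oxoglutarate dehydrogenase complex, and PROX2, a homeobox gene, 401 kb away, scored 5.21 in ponatinib and 6.73 in DMSO. A bait with no coding gene end, 17.2 kb away, scored 5.56 in ponatinib and 7.92 in DMSO. Within 5 kb, 11 of 12 interactions in ponatinib and 11 of 13 in DMSO had a counterpart.

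BRAF, which encodes a RAF kinase that ERK phosphorylates in a negative feedback, had 5 interactions in ponatinib and 9 in DMSO, 3 of them shared. The share in ponatinib was 35.7% (12.8 to 64.9%), which holds 52.1%. Its bait was chr7:140922831-140925468, at the start of this minus-strand gene. The shared partners included a fragment that holds an end of ADCK2, a gene for a mitochondrial kinase-like protein, 245 kb away, with 9.42 in ponatinib and 7.14 in DMSO. The other shared partners lay inside BRAF, 89.6 kb away with 6.47 in ponatinib and 6.17 in DMSO, and 40.1 kb away with 6.67 in ponatinib and 7.03 in DMSO. In all, 3 interactions in each list reached into the body of BRAF.

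The 6 interactions of BRAF found in the DMSO list only lay on both sides of the bait. The start of NDUFB2, a gene for a subunit of respiratory complex I, 225 kb away, scored 7.87 in DMSO and was not in the ponatinib list. A fragment inside BRAF 97.2 kb away scored 7.74 in DMSO only. All 3 of BRAF's partners at higher coordinates, at 89.8, 92.2 and 676 kb, were in the DMSO list only, with scores of 5.85, 5.52 and 6.1. In ponatinib its same-chromosome partners all lay at lower coordinates, with 1 further partner on chromosome 2 at a score of 5.86. Counting pairs on 1 chromosome only, BRAF had 4 interactions in ponatinib and 9 in DMSO, which just reaches 2-fold after 1 is added to each. By that count 6.1% of 9504 genes were called with fewer and 9.91% with more.

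**Figure D4:**
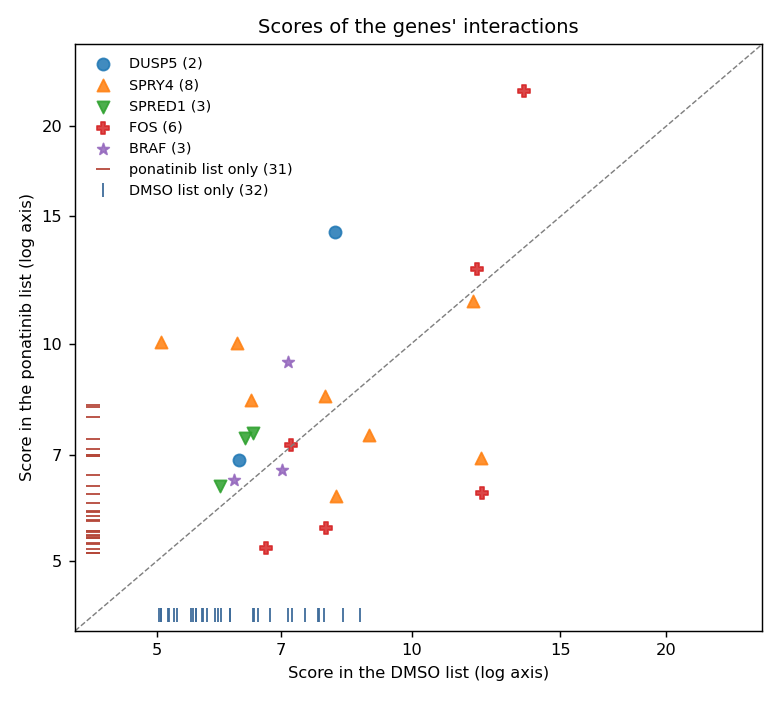
Score in the ponatinib list (vertical, log axis) against score in the DMSO list (horizontal, log axis) for the 22 shared interactions, 1 symbol per gene, with the dashed line at equal scores; ticks along the axes are the 31 interactions in the ponatinib list only and the 32 in the DMSO list only. Of the 22, 14 lie above the line, and no tick reaches a score of 10.

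Over the 7 genes the lists shared 22 interactions, 41.5% of those in ponatinib (28.1 to 55.9%) and 40.7% of those in DMSO (27.6 to 55.0%). Over all listed interactions the shares were 40.7% and 44.3%, so these genes' interactions were shared about as often as those of the whole lists. Sharing went with score. Of interactions with a score from 5 up to 7, 27.3% were shared (9 of 33 in each list), and from 7 up to 10, 50.0% were (7 of 14 in ponatinib and 8 of 16 in DMSO). At 10 or more, 6 of 6 in ponatinib and 5 of 5 in DMSO were shared, and they belonged to DUSP5, SPRY4 and FOS. In the whole lists the same classes had 25.9%, 49.8% and 78.9% shared in ponatinib, and 29.4%, 56.0% and 84.0% in DMSO. Of the 22 shared interactions 14 had the higher score in ponatinib, beside 53.6% of the 37194 shared interactions of the whole lists.

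Matching both ends within 5 kb raised sharing to 67.9% of the 53 interactions in ponatinib (53.7 to 80.1%) and 75.9% of the 54 in DMSO (62.4 to 86.5%). The whole lists gave 66.6% and 67.5% on that rule. The median distance of the 7 genes' partners was 150 kb in ponatinib (117 to 195 kb) and 163 kb in DMSO (138 to 207 kb), and each interval holds the other median. Both medians lay below those of the whole lists, 242 and 234 kb. Partners on another chromosome numbered 3 in ponatinib and 1 in DMSO, none of them shared, at SPRY4, FOS and BRAF. Partners that were themselves baits numbered 11 in each list.

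SPRED2, the other Spred gene, has the bait next to its first base as its nearest listed bait. That bait had 13 interactions in ponatinib and 10 in DMSO, 5 of them shared, beside 7 and 7 at SPRED1. Its numbers are kept apart from the totals above, and the genes at its partners are named after their values were seen. The highest score in both lists was a fragment inside ACTR2, a gene for a subunit of the actin-nucleating Arp complex, 169 kb away, with 14.85 in ponatinib and 12.02 in DMSO. The start of ACTR2 itself, 205 kb away, scored 9.97 in ponatinib and was not in the DMSO list. The start of AFTPH, 908 kb away, scored 9.18 in ponatinib only, and the start of CEP68, 378 kb away, scored 8.69 in DMSO only. On the other side a fragment 116 kb away scored 5.01 in ponatinib and 9.93 in DMSO. Only 1 interaction in ponatinib and 2 in DMSO reached into SPRED2, at scores of 5.06, 6.41 and 5.04. The last of these, 62.9 kb away, was with a fragment that holds a second RefSeq start of SPRED2, chr2:65366778. At SPRED1, 6 and 6 reached into the gene, and the difference was not tested.

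ETV5 encodes an ETS transcription factor downstream of ERK. Its nearest outside bait, chr3:186109436-186113583, lies 347 bp beyond the end of the gene at higher coordinates. The promoter windows held none for ETV5, so its strand was not used and that end is not called its start or its 3′ end. That bait had 2 interactions in ponatinib and 2 in DMSO, and 0 were shared. In ponatinib they were the start of TRA2B, 172 kb away at 5.34, and a fragment on chromosome 12 at 5.2. In DMSO they were a fragment inside TBCCD1, 455 kb away at 14.03, and a fragment 696 kb away at 8.71. Of the 3 listed fragments over ETV5 itself, the bait inside the gene, chr3:186077357-186080605, had 1 interaction, with a fragment at CRYGS 465 kb away at 6.56 in DMSO only. A second fragment inside the gene was a partner of the bait at FETUB, 572 kb away, at 5.6 in ponatinib only. The fragment that holds the higher-coordinate end of ETV5, chr3:186106079-186109435, was listed as a partner of the bait at DNAJB11 and TBCCD1, 463 kb away, at 6.23 in ponatinib only. Fragments at TBCCD1 were thus paired with one or the other side of that end of ETV5 in each list, through different fragments. With SPRED2 and ETV5 added by allowing 1 kb between gene end and bait, the genes had 68 interactions in ponatinib and 66 in DMSO, 50.7% in ponatinib (42.0 to 59.5%).

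EGR1, the immediate early zinc finger gene, had no listed fragment over it at all (chr5:138465479-138469303). The nearest listed bait, at REEP2, lies 26.2 kb away and had 2 interactions in ponatinib and 3 in DMSO, 1 of them shared. Its RefSeq window holds matches to the CArG box, the sequence bound by serum response factor, at -105 to -96 and -83 to -74, and 1.25% of all windows hold such a match. No contact of that promoter can be given from these lists.

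The rest of the pathway stood near the whole lists. A list of 52 other genes, covering adaptors, RAS proteins and their regulators, the RAF, MEK and ERK kinases, further DUSP, Sprouty and Spred genes, ETS, FOS, JUN and EGR family members and RSK kinases, had 43 genes with a listed bait and 9 without. These 43 genes had 480 interactions in ponatinib and 419 in DMSO, 222 of them shared, and 53.4% in ponatinib (50.1 to 56.7%), an interval that holds 52.1%. Of 41 genes with at least 5 interactions, 4 were called with more in ponatinib (9.76%) and 2 with fewer (4.88%), beside 9.92% and 6.26% of all genes. Interactions were more numerous in ponatinib at 23 genes, fewer at 13 and equal at 7.

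Among the 4 genes with more were the Sprouty gene SPRY1, with 4 in ponatinib and 1 in DMSO, and the ETS factor genes ELK1, with 11 and 4, and ELK3, with 6 and 2. The ELK1 bait also holds an end of UXT. The 2 genes with fewer were the RAS family gene MRAS, with 1 in ponatinib and 4 in DMSO, and ELK4, of the same ETS group as ELK1 and ELK3, with 3 and 8. ELK1 and ELK4 lay on opposite sides of equal numbers, on few interactions each. These calls depended on the score minimum, which also left fewer genes with at least 5 interactions. At a score of at least 7, 26 had that many. Of these, 3 were called with more and 2 with fewer, beside 10.7% and 5.28% of 4865 genes in all. Of the genes called in the whole lists only ELK4 was among them. At a score of at least 10, 12 genes were left, and the 1 gene called was none of those called in the whole lists. The most interactions were at the adaptor gene GAB2, with 39 in ponatinib and 39 in DMSO, at PHLDA1, with 32 and 34, and at the RAS inhibitor gene RASA1, with 37 and 26.

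**Figure D5:**
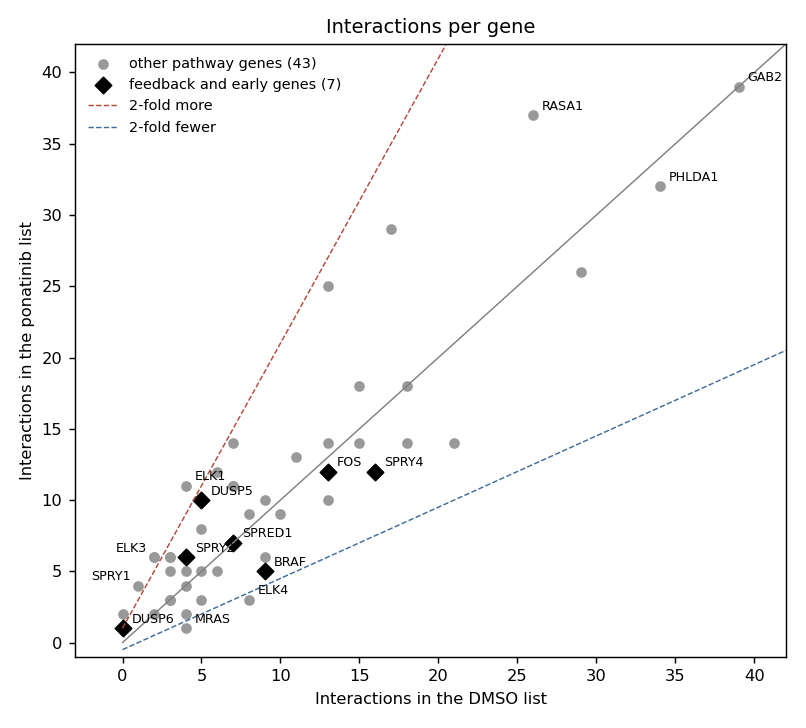
Interactions per gene in the ponatinib list (vertical axis) against the DMSO list (horizontal axis). Grey circles are the 43 other pathway genes with a listed bait, and black diamonds are the 7 genes of the set with one. The solid line marks equal numbers and the dashed lines 2-fold with 1 added to both numbers. Of the 7 diamonds, DUSP6 lies on the upper dashed line, with 1 and 0 interactions, and the other 6 lie between the dashed lines.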

How the data were processed

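Promoter-capture Hi-C was measured in 1 ponatinib and 1 DMSO library, and for each the authors deposited a list of interactions, with a bait fragment, a partner fragment and a score in each line. The score is the authors' own value per interaction, as the deposited files give it, and its definition is not given in the sources used; nor are the aligner, the caller and the threshold. Coordinates are in hg38, as the submitters' processing notes state.

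Pairs were taken as unordered, so the 91306 lines of the ponatinib list gave 91305 interactions. Gene ends came from RefSeq (GRCh38.p14, 20037 coding genes on the main chromosomes, 13721 with a listed bait). Distances are between fragment midpoints. Runs of partners are at least 3 fragments with gaps of at most 20 kb and were chosen after seeing the data. Ratios of numbers are log2((ponatinib + 1)/(DMSO + 1)), which understates differences of small numbers. Intervals of shares are exact (Clopper-Pearson) and those of medians come from order statistics, at a confidence level of 95%. Counting of calls was checked on the DMSO list after interactions of chosen genes were removed from it. That check covers the counting only, since it holds no noise between libraries.

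Named genes are the 10 members, the coding genes with an end on the partners of the 5 highest scores of each member in each list or on partners that are baits, and other pathway genes past 2-fold or among the 3 with most interactions, of which 1 is not reported here. Genes named only for lying over a partner, and those at fragments in or next to SPRED2, ETV5 and EGR1, were chosen after their values were seen. The members and the pathway list were chosen with earlier results of these data known. Alternatives were other score minima, lists of equal length, pairs on 1 chromosome, other rules for baits and for matching, another pseudocount, scaling and a higher minimum number. Python 3.11.15, numpy 2.4.6, pandas 2.3.3, scipy 1.17.1 and matplotlib 3.10.9 were used.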

Additional observations from a re-analysis of the deposited data

How the results depend on the processing

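No paired analysis was possible because there was 1 library per treatment, and for the same reason no library could be left out. Of 123 values recomputed under 15 settings, 103 stayed within the interval or the allowed range of the main value. That count does not measure stability, because some values could hardly move or not at all. DUSP6 had 1 interaction and an interval of 2.5 to 100%, and taking baits at the gene start left the numbers of every member as they were. The share of the 10 genes' interactions in ponatinib stayed between 47.4 and 54.5%. The calls depended on the settings. At a score of at least 7, 520 of 4865 genes had 2-fold more in ponatinib (10.7%) and 257 fewer (5.28%). Of the 4 members with enough interactions there, 1 had more (DUSP5, 4 in ponatinib and 1 in DMSO) and 1 fewer (BRAF, 1 and 4). At a score of at least 10, 216 of 1813 genes had more (11.9%) and 60 fewer (3.31%). Other pathway genes had 57.0% in ponatinib (81 and 61). Of 12 of them with enough interactions, 1 had more and 0 fewer, with none of the genes called in the whole lists. With pairs on 1 chromosome, 1 of 6 members, BRAF, had fewer, beside 6.1% of 9504 genes. With at least 10 interactions per gene, 467 of 6381 genes had more (7.32%) and 243 fewer (3.81%), and of 28 other pathway genes 1 each. In lists of equal length 722 genes had more and 827 fewer, against 971 and 613, so the commoner direction turned when the ponatinib list was cut to its highest scores. Scaling by list length gave 671 and 626 and kept it. Sharing was 67.9% of the members' interactions in ponatinib and 75.9% in DMSO within 5 kb, and 71.7% and 79.6% within 10 kb, since a wider match allows more. A pseudocount of 0.5 changed no call and could not, since for whole numbers it sets the same 2-fold limit as a pseudocount of 1. Read depth, the number of replicates and the unknown definition of the score limit every comparison. The cause of these shifts was otherwise not tested.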

Other observations

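Several partners of these genes were themselves busy fragments. The SMNDC1 start, partner of DUSP5, had 35 interactions in ponatinib and 37 in DMSO over all of its partners, and the NEK9 start, partner of FOS, had 19 and 18. The GNPDA1 start, partner of SPRY4 in DMSO, had 17 in ponatinib and 19 in DMSO, and the TMED10 start, partner of FOS, had 8 in each list. The bait 17.2 kb from FOS had 13 in ponatinib and 20 in DMSO, and the bait 92.2 kb from BRAF had 14 and 20. The NDFIP2 start had 6 in ponatinib and 18 in DMSO; its pair with SPRY2 was in the ponatinib list. The MXI1 start, partner of DUSP5 in ponatinib, had 6 in ponatinib and 2 in DMSO. All of these fragments are baits. A fragment that is not a bait can be listed only with baits, so its number cannot be set against theirs. Of the 71 partners that were not baits, 39 had no interaction other than the one with the member gene. These values describe 1 library per treatment.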
